A study of Mus musculus with 9 samples.

Results

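The p53 target and apoptosis genes described here are 32 mouse genes, found by matching their symbols in the gene tables of 9 RNA-seq libraries of 4T1-TGL cells. They comprise Trp53 itself, 3 of its negative regulators, and genes of cell cycle arrest, death, metabolic control and DNA repair that p53 is known to switch on or that act beside it. Of the 32 genes, 30 were listed in at least 1 library and 29 had enough counts to be tested, out of 19072 genes listed and 13682 tested in all. Pmaip1 and Eda2r, which encode the BH3-only protein NOXA and a death receptor of the TNF receptor family, were listed in no library. Perp, a p53 target of the plasma membrane, had estimated counts of 4, 3 and 3 in the control libraries, 0 in all 3 KO1 libraries, and 1, 0 and 0 in KO2, and was too low to test.

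4T1-TGL cells derive from 4T1, a mammary tumour line of BALB/c mice, and all groups were cultured in DMEM/F12. The control group (Ctrl) has the genotype WT, and KO1 and KO2 are lines with the genotype Malat1 KO, each with 3 libraries. Malat1 is a long non-coding RNA of the nucleus. The labels do not say how the deletion was made, whether a line is 1 clone, or whether the replicates came from different cultures. The tests below therefore weigh differences against the spread among these libraries, which may be technical only.

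p53 is a transcription factor that is held at a low level by the ubiquitin ligase MDM2 and its partner MDM4, and that accumulates when DNA damage or other stress frees it from them. It then binds pairs of a short half-site near its targets. Some targets stop the cell cycle (Cdkn1a, Btg2), some repair DNA (Xpc), and some restrain growth signalling (Sesn1). Others open the mitochondrial path to cell death (Bax, Bbc3). Many of these genes also respond to other stress pathways, and can be expressed without p53. The parental 4T1 line is generally described as lacking functional p53 protein. RNA levels of Trp53 do not measure that protein.

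Total estimated counts ran from 30655924 to 35406395 per library. Values are given as CPM, the scaled share of a library's counts, when 1 gene is compared between groups, and as FPKM, in which fragments are scaled by gene length and library size, when genes are compared with each other. A gene was called when the adjusted p of edgeR's quasi-likelihood test, over all 13682 tested genes, was under 0.05. Malat1 itself stood at 462 ± 54.9 CPM (SD, n = 3) in Ctrl, at 3.40 ± 0.669 CPM in KO1 and at 126 ± 31.5 CPM in KO2, or 0.735% and 27.2% of Ctrl (log2 -7.08 and -1.88, adjusted p = 2.55e-08 and 1.37e-05). Of the 8 epithelial markers, Krt8 and Krt18 were abundant, at 204.11 to 598.93 and 233.35 to 848.41 FPKM, whereas Epcam and Cdh1, which define epithelial cells, did not pass 0.32 and 0.08 FPKM in any library. Summed FPKM of the epithelial list ran from 456.41 to 472.29 in Ctrl, 799.5 to 938.96 in KO1 and 1342.34 to 1447.9 in KO2. Nearly all of this sum was Krt8 and Krt18, while Krt19, Cldn3, Cldn4 and Cldn7 did not pass 0.36 FPKM in any library. The fibroblast list, of which 5 of 6 markers were listed, summed to 50.93 to 52.64, 42.0 to 45.25 and 20.36 to 21.21 FPKM, nearly all of it Pdgfra and Dcn, while Col1a1 stayed at or under 0.46, Lum at or under 0.02 and Postn at or under 0.4 FPKM. The macrophage list summed to 12.16 to 17.6, 23.96 to 31.95 and 9.55 to 11.54 FPKM, nearly all of it Cd68, and its defining members Adgre1, Csf1r and Ptprc did not pass 0.04 FPKM. Endothelial markers summed to at most 0.78 FPKM and T and NK cell markers to at most 2.48 FPKM, almost all of it Lck. The part of the keratin and Pdgfra differences in the results that follow was not tested.

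Because several of these genes are textbook examples of direct p53 control, their promoters were searched for the p53 half-site, a consensus of 10 bases, with no mismatch and on both strands. RefSeq promoter windows (GRCm38.p6, 250 bases before to 50 bases after each start) were at hand for 25 of the 32 genes. A half-site was found in 11 of the 25, and in 9.55% of the 27025 genes with a window. Pairs of half-sites with at most 2 mismatches in all and a gap of 0 to 13 bases were found in 5 of the 25 (Bax, Ccng1, Cdkn1a, Gadd45a and Sesn1) and in 4.71% of all genes. The genes had been chosen in part as p53 targets, so these shares describe the choice. A match is a run of letters and not a measured binding site. The matches of Cdkn1a and Ccng1 are shown because their half-sites adjoin with no gap and 1 mismatch, and those of Mdm2, Gadd45a and Bax because the levels of these genes are followed below. Capitals mark the half-sites, and each sequence reads 5′ to 3′ on the strand of the gene.
Cdkn1a, chr17:29090918-29090957, plus strand: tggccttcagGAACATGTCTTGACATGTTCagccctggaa
Ccng1, chr11:40755452-40755491, minus strand: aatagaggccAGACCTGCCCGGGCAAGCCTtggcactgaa
Mdm2, chr10:117710915-117710964, minus strand: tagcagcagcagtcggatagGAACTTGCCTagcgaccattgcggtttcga
Gadd45a, chr6:67037418-67037467, minus strand: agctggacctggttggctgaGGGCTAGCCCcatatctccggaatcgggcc
Bax, chr7:45467070-45467119, minus strand: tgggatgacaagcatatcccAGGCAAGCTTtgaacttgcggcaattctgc

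A second motif, the cyclic AMP response element TGACGTCA, was chosen after the values had been seen. It was found in 3 of the 25 windows (Plk2, Btg2 and Ppm1d) and in 2.03% of all genes. The AP-1 motif TGANTCA, chosen likewise, was in 1 of the 25 (Mdm4) and in 8.97% of all genes. The elements of Plk2 and Btg2 are shown because these genes had among the largest differences in KO2, and that of Ppm1d because its level went the other way there. Dram1, Gadd45b, Gadd45a, Plk3 and Aen, which also fell at least 2-fold in KO2, had no such element in their windows. Capitals mark the element.
Plk2, chr13:110394962-110395009, plus strand: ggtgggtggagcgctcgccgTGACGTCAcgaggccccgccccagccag
Btg2, chr1:134079294-134079341, minus strand: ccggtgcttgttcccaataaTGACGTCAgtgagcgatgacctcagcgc
Ppm1d, chr11:85311149-85311196, plus strand: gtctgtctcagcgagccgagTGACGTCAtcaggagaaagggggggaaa

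In KO2 many of the 32 genes fell and fewer rose, while few were called in KO1. In bulk RNA, fewer cells that express a gene and less RNA per cell cannot be told apart. In KO2 against Ctrl, 19 of the 29 tested genes were called, 6 of them higher and 13 lower. Among all tested genes 54.1% were called, 24.6% higher and 29.5% lower, so the share called among the 29 (65.5%) was not far above that of all genes, and the share called lower was 44.8%. A fall of at least 2-fold was called for 7 of the 29 genes (Plk2, Plk3, Gadd45a, Gadd45b, Btg2, Aen and Dram1) against 11.4% of all tested genes. A rise of that size was called for none, against 3.95% of all. The 32 genes were chosen with earlier results of these data known, so these shares may reflect the choice. The median log2 fold change was -0.26 over the 29 genes and -0.03 over all tested genes. In KO1 against Ctrl, 6 of the 29 were called, 2 higher (Trp53inp1 and Ddb2) and 4 lower (Mdm2, Plk3, Bax and Polk). The background there was 30.5% called, 15.6% higher and 14.9% lower. The median was -0.09 and the values ran from -0.59 to 0.53.

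**Figure D1:**
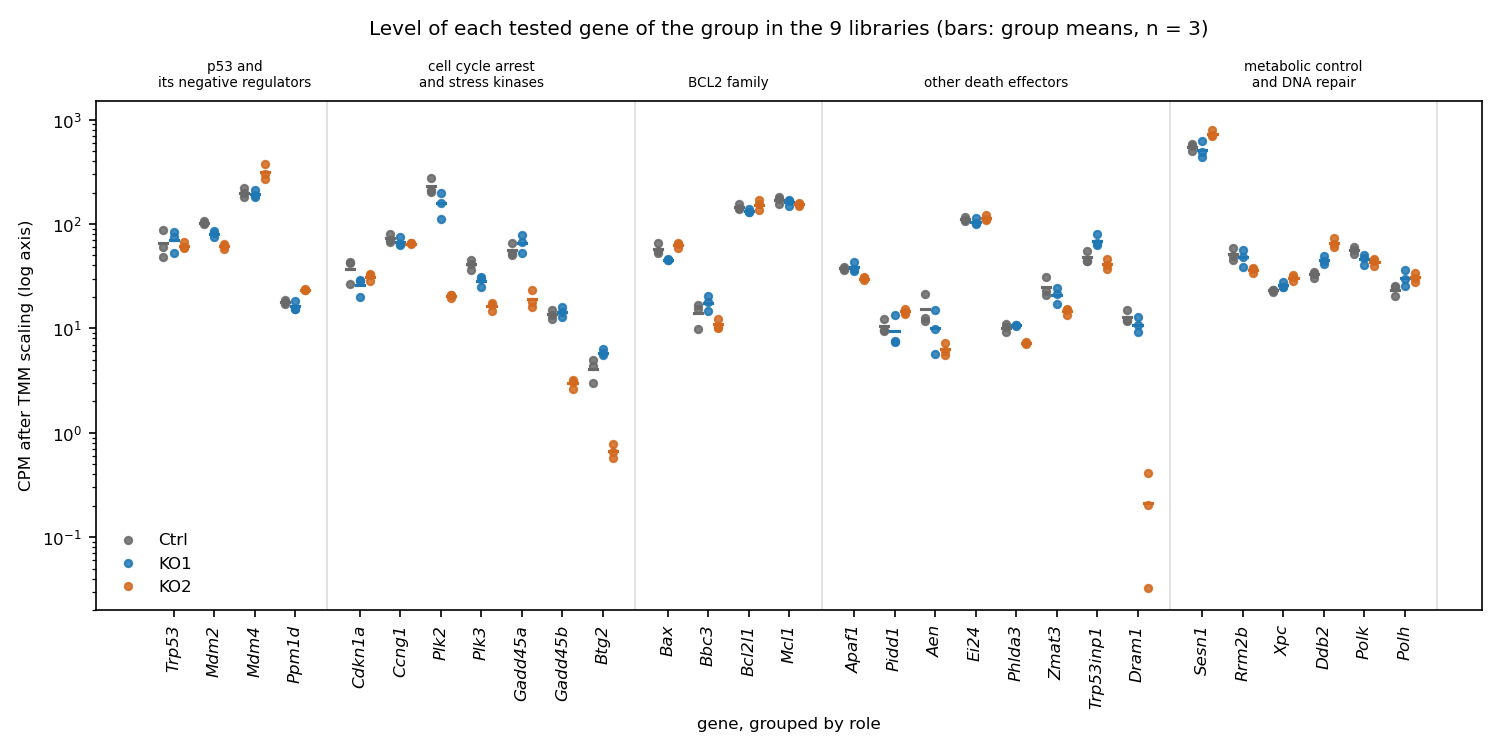
CPM after scaling (log axis) of the 29 tested genes, grouped by role, with 1 point per library and a bar at each group mean (n = 3). The Ctrl and KO1 points lay close together for most genes, and the KO2 points of Plk2, Gadd45b, Btg2 and Dram1 lay far below those of Ctrl and KO1.

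At the level of length-scaled expression, Sesn1 was the most abundant of the genes in Ctrl, at 199.9 ± 15.3 FPKM (SD, n = 3), followed by Plk2 at 84.0 ± 13.96, Bax at 70.9 ± 8.31 and Bcl2l1 at 60.4 ± 3.91 FPKM. The Ctrl libraries of Plk2 and Bax overlapped, as did those of Bax and Bcl2l1, while all those of Plk2 lay above all those of Bcl2l1. Trp53 stood at 36.2 ± 11.6, Mdm2 at 33.9 ± 1.18 and Cdkn1a at 20.2 ± 5.17 FPKM. The lowest of the tested genes in Ctrl were Zmat3 at 3.26 ± 0.662, Pidd1 at 2.86 ± 0.437 and Btg2 at 1.37 ± 0.341 FPKM. In KO2, Plk2 was at 7.06 ± 0.235 FPKM, below Mdm2 at 19.1 ± 1.33 FPKM, which it had exceeded in Ctrl.

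Trp53, at chromosome 11, 69580348 to 69591873 (GRCm38), showed no difference between the groups beyond its spread. Its start overlaps that of Wrap53 on the other strand, and without counting by strand reads from the overlap cannot be told apart. Its level was 48.5, 88.2 and 59.9 CPM in Ctrl replicates 1 to 3, 84.3, 52.2 and 75.7 CPM in KO1, and 66.8, 59.4 and 60.02 CPM in KO2. The 3 groups overlapped, and the spread within Ctrl and KO1 was wide. The log2 fold change was 0.11 ± 0.23 (SE) in KO1 (adjusted p = 0.755) and -0.08 ± 0.23 in KO2 (adjusted p = 0.788), and both turned sign when single libraries were left out.

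Mdm2, which encodes the ubiquitin ligase that marks p53 for degradation and is itself a p53 target, fell in both knockout lines. It lies on chromosome 10 at 117688875 to 117710758. Its level was 100.5, 102.2 and 106.2 CPM in Ctrl, 85.8, 75.1 and 81.9 CPM in KO1, and 65.0, 61.4 and 57.4 CPM in KO2. No 2 groups overlapped: Ctrl was highest, KO1 between, and KO2 lowest. Its fitted log2 fold change was -0.35 ± 0.073 in KO1 (adjusted p = 0.00393) and -0.75 ± 0.073 in KO2 (adjusted p = 8.19e-06), and the difference between the 2 lines was -0.40 ± 0.073 (adjusted p = 0.000805).

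Mdm4, the partner of MDM2 that blocks p53's activation domain, rose in KO2 from 199.96 ± 20.5 to 312 ± 54.8 CPM (log2 0.64, adjusted p = 0.00108). It stood at 195 ± 15.3 CPM in KO1 (log2 -0.04, adjusted p = 0.849). Ppm1d, which encodes the phosphatase WIP1 that ends the damage response, also rose in KO2, from 17.97 ± 0.883 to 23.4 ± 0.338 CPM (log2 0.38, adjusted p = 0.00434), with 16.3 ± 1.64 CPM in KO1 (adjusted p = 0.264). The 3 negative regulators were therefore not alike in KO2: Mdm2 was lower, and Mdm4 and Ppm1d higher.

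The 7 genes of cell cycle arrest and stress kinases held most of the larger changes. In KO2, 5 of the 7 fell, none rose, and the median log2 fold change was -1.55, where 29.5% of all tested genes fell and 24.6% rose. In KO1, 1 of the 7 fell and none rose, where 14.9% of all tested genes fell and 15.6% rose. Cdkn1a and Ccng1, both regarded as typical p53 targets, were called in neither line.

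Cdkn1a, which encodes the cyclin-dependent kinase inhibitor p21, lies on chromosome 17 at 29090979 to 29100722. It stood at 26.4, 42.2 and 43.4 CPM in Ctrl, 28.6, 19.98 and 29.1 CPM in KO1, and 32.9, 28.3 and 32.2 CPM in KO2. Ctrl replicate 1 lay among the knockout libraries and the other 2 Ctrl libraries above them all. The log2 fold change was -0.53 ± 0.19 in KO1 (adjusted p = 0.0649) and -0.26 ± 0.19 in KO2 (adjusted p = 0.278). Without Ctrl replicate 1 both were called, at -0.73 (adjusted p = 0.00589) and -0.46 (adjusted p = 0.027), and DESeq2 called the KO1 difference with all libraries (adjusted p = 0.0253). Ccng1, which encodes cyclin G1, was at 72.7 ± 7.43 CPM in Ctrl, 66.9 ± 6.67 in KO1 and 64.9 ± 0.841 in KO2. Its KO2 libraries all lay below those of Ctrl, with an edgeR log2 fold change of -0.16 (adjusted p = 0.153). With limma on log2(FPKM + 0.1), Ccng1 was called lower in KO2 (-0.23, adjusted p = 0.0495).

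Plk2, a polo-like kinase induced by serum, stress and p53, fell by a factor of more than 10 in KO2. It lies on chromosome 13 at 110395044 to 110400844, and its promoter element is shown above. Its level was 201, 274 and 212 CPM in Ctrl, 199, 112 and 160.5 CPM in KO1, and 19.4, 20.7 and 20.8 CPM in KO2. The KO2 libraries lay far below the others, at 8.86% of the Ctrl mean, and the KO1 libraries reached up to just under the lowest Ctrl library. Its fitted log2 fold change was -3.50 ± 0.21 in KO2 (adjusted p = 5.74e-07), and KO2 differed from KO1 by -2.95 ± 0.21 (adjusted p = 1.57e-06). In KO1 it was -0.54 ± 0.19 (adjusted p = 0.052), a value just over the threshold that 5 of the other settings took under it, among them DESeq2 (adjusted p = 0.0102) and the fit without KO1 replicate 1 (-0.75, adjusted p = 0.00964).

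Plk3, a related kinase of the stress response on chromosome 4 at 117128655 to 117133963, fell in both lines. It was at 36.6, 45.2 and 41.4 CPM in Ctrl, 31.1, 24.6 and 29.7 CPM in KO1, and 16.8, 14.6 and 17.4 CPM in KO2. The 3 groups did not overlap, in the same order as for Mdm2. The log2 fold change was -0.53 ± 0.11 in KO1 (adjusted p = 0.00443) and -1.33 ± 0.12 in KO2 (adjusted p = 3.07e-06), with -0.81 ± 0.12 between the lines (adjusted p = 0.000146).

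Gadd45a and Gadd45b encode small stress proteins that act on p38 and JNK signalling, cell cycle arrest and DNA repair. Gadd45a, on chromosome 6 at 67035096 to 67037407, was at 50.001, 65.0 and 52.4 CPM in Ctrl, 77.8, 52.8 and 67.1 CPM in KO1, and 23.4, 16.0 and 17.9 CPM in KO2. Gadd45b, on chromosome 10 at 80930091 to 80932204, was at 15.1, 12.3 and 13.5 CPM in Ctrl, 12.7, 16.2 and 14.5 CPM in KO1, and 3.08, 3.22 and 2.62 CPM in KO2. For both genes Ctrl and KO1 overlapped and every KO2 library was lower. The log2 fold changes in KO2 were -1.55 ± 0.18 for Gadd45a (adjusted p = 3.94e-05) and -2.19 ± 0.14 for Gadd45b (adjusted p = 2.15e-07). In KO1 they were 0.24 ± 0.17 (adjusted p = 0.316) and 0.08 ± 0.12 (adjusted p = 0.642), and the lines differed by -1.79 (adjusted p = 1.35e-05) and -2.28 (adjusted p = 1.55e-07).

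Btg2, an antiproliferative early response gene on chromosome 1 at 134074865 to 134079155, was low in Ctrl and lower in KO2. Its level was 4.96, 3.01 and 4.38 CPM in Ctrl, 5.74, 6.29 and 5.54 CPM in KO1, and 0.655, 0.576 and 0.782 CPM in KO2. The KO1 libraries were all above Ctrl and the KO2 libraries all below. The KO2 difference was -2.61 ± 0.22 (adjusted p = 2.89e-06). The KO1 difference of 0.51 ± 0.18 had an adjusted p of 0.0547, and without Ctrl replicate 1 it was called at 0.67 (adjusted p = 0.0315). The lines differed by -3.12 ± 0.22 (adjusted p = 5.68e-07).

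**Figure D2:**
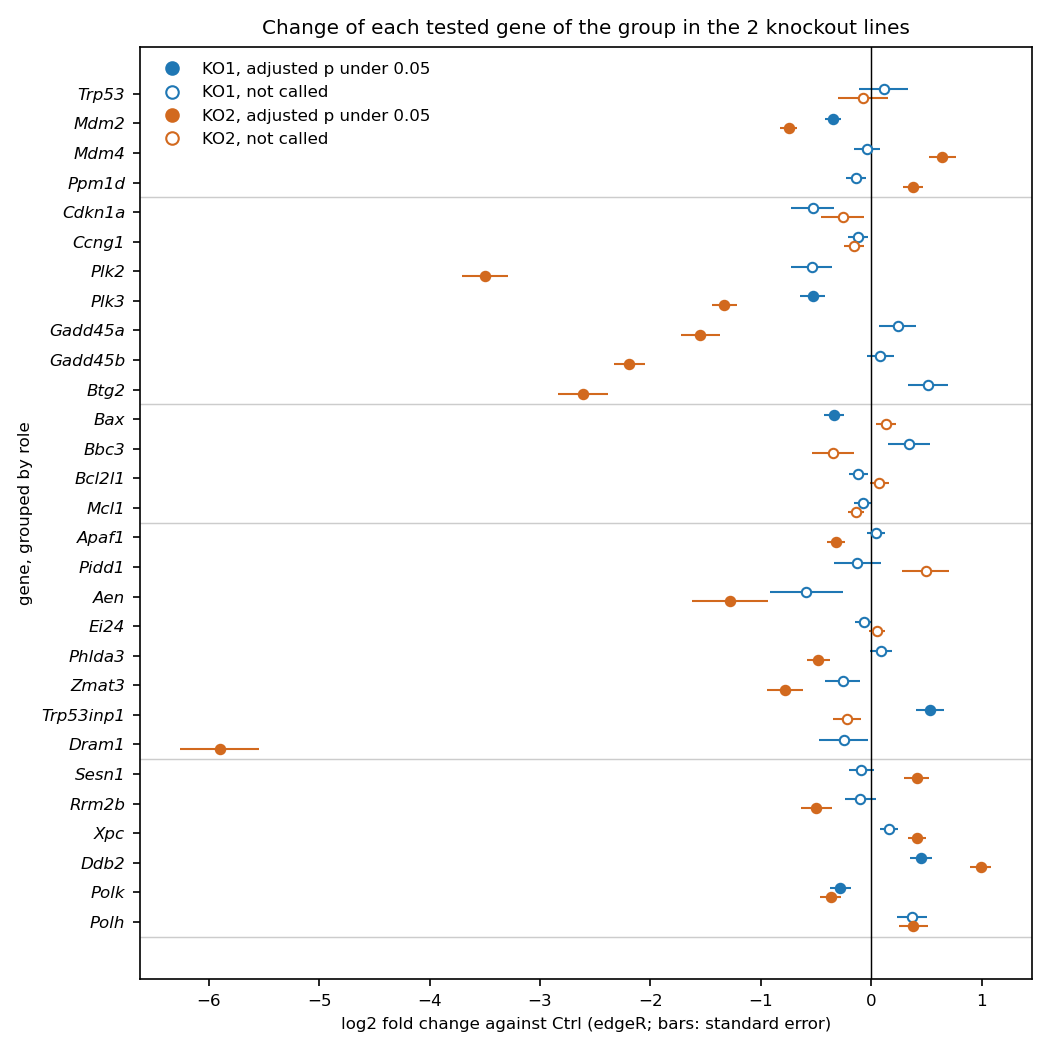
Log2 fold change against Ctrl of the 29 tested genes in KO1 (blue) and KO2 (orange), by role; bars are standard errors and filled points are called at an adjusted p under 0.05. The KO2 values reached -5.90 for Dram1 and -3.50 for Plk2, while all KO1 values lay between -0.59 and 0.53.

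None of the 4 tested BCL2 family genes was called in KO2, where 54.1% of all tested genes were called. Bax, the pore former of the mitochondrial outer membrane, was at 57.4 ± 7.10 CPM in Ctrl, 45.2 ± 0.545 in KO1 and 62.6 ± 3.52 in KO2. It fell in KO1 (log2 -0.34, adjusted p = 0.0129) and was not called in KO2 (0.13, adjusted p = 0.255), and the lines differed by 0.47 (adjusted p = 0.00105). Without Ctrl replicate 2, Bax was called higher in KO2 (0.23, adjusted p = 0.0267). Bbc3, which encodes the BH3-only protein PUMA, stood at 13.9 ± 3.64, 17.6 ± 2.86 and 10.9 ± 1.10 CPM. Neither line was called against Ctrl (adjusted p = 0.198 and 0.14), whereas KO2 was lower than KO1 by 0.69 on the log2 scale (log2 -0.69, adjusted p = 0.0099). Without Ctrl replicate 1, Bbc3 was called lower in KO2 (-0.55, adjusted p = 0.0112).

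The survival genes Bcl2l1, which encodes BCL-XL, and Mcl1 were among the more abundant genes. Bcl2l1 was at 146 ± 9.81, 134 ± 5.48 and 153 ± 16.0 CPM in Ctrl, KO1 and KO2, and Mcl1 at 170.1 ± 12.6, 161 ± 10.8 and 154 ± 3.91 CPM. The groups overlapped for both. Bcl2l1 had log2 fold changes of -0.12 and 0.07, and Mcl1 of -0.08 and -0.14, none of them called by edgeR. With limma on log2(FPKM + 1), Mcl1 was called lower in KO2 (-0.21, adjusted p = 0.0344).

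Of the 8 other tested genes of cell death, 5 fell in KO2 and none rose (29.5% and 24.6% of all tested genes), and in KO1 1 rose and none fell (15.6% and 14.9% of all tested genes). Dram1, which encodes a lysosomal membrane protein that links p53 to autophagy, had the largest change of the 29. It lies on chromosome 10 at 88322801 to 88364359. Its level was 11.7, 15.0 and 12.1 CPM in Ctrl, 12.7, 9.14 and 10.7 CPM in KO1, and 0.0328, 0.407 and 0.204 CPM in KO2. The KO2 values rest on estimated counts of 1, 12 and 6, against 389, 532 and 398 in Ctrl. Ctrl and KO1 overlapped, and KO2 kept 1.66% of the Ctrl mean. Its fitted log2 fold change was -5.90 ± 0.35 in KO2 (adjusted p = 2.13e-07) and -0.25 ± 0.22 in KO1 (adjusted p = 0.431), and the lines differed by -5.65 ± 0.36 (adjusted p = 3.04e-07). At so few counts the size is loose: without KO2 replicate 2 it was -6.74.

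Aen, an exonuclease of apoptotic DNA on chromosome 7 at 78895927 to 78911209, fell in KO2. It was at 11.8, 21.2 and 12.6 CPM in Ctrl, 14.9, 5.70 and 9.86 CPM in KO1, and 7.30, 5.53 and 6.02 CPM in KO2. KO2 lay below every Ctrl library, and KO1 spanned both. The log2 fold change was -1.28 ± 0.34 in KO2 (adjusted p = 0.0115) and -0.59 ± 0.33 in KO1 (adjusted p = 0.219). Without KO1 replicate 1 the KO1 difference was called (-0.97, adjusted p = 0.0435), and the difference between the lines, -0.69 (adjusted p = 0.118), was called without KO1 replicate 2 (-0.95, adjusted p = 0.0161).

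The other 3 that fell in KO2 changed by less than 2-fold. Zmat3, a p53-induced RNA-binding protein, went from 25.01 ± 5.27 to 14.6 ± 1.12 CPM (log2 -0.78, adjusted p = 0.00192). Phlda3, which restrains AKT, went from 10.1 ± 0.909 to 7.23 ± 0.192 CPM (-0.48, adjusted p = 0.00205). Apaf1, the scaffold of the apoptosome, went from 37.5 ± 1.01 to 30.0 ± 0.999 CPM (-0.32, adjusted p = 0.00757). In KO1 none of the 3 was called, with 20.9 ± 3.60, 10.7 ± 0.133 and 38.5 ± 4.01 CPM.

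Trp53inp1, which encodes a stress protein that promotes p53 phosphorylation and autophagy, was the only one of these 8 called in KO1. It rose from 48.0 ± 6.51 to 69.2 ± 9.04 CPM (log2 0.53 ± 0.12, adjusted p = 0.00771), and was at 41.1 ± 4.84 CPM in KO2 (-0.22, adjusted p = 0.15). The lines differed by -0.75 (adjusted p = 0.000425). Pidd1, the scaffold of the PIDDosome, stood at 10.4 ± 1.57, 9.52 ± 3.51 and 14.6 ± 0.790 CPM. It was not called in KO2 (0.49, adjusted p = 0.0733), and the Ctrl and KO2 libraries did not overlap. The edgeR fit of Ctrl and KO2 alone called it (0.50, adjusted p = 0.00562). So did the fit without KO1 replicate 2 (0.50, adjusted p = 0.00321), a library at 13.6 CPM against 7.55 and 7.44 in the other KO1 libraries. Without that library Pidd1 was also called lower in KO1, at -0.48 (adjusted p = 0.0201), against -0.13 (adjusted p = 0.68) with it. Ei24, a protein of the endoplasmic reticulum with a part in autophagy, was at 110.4 ± 5.62, 105 ± 7.86 and 114 ± 6.48 CPM, and its groups overlapped.

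All 6 genes of metabolic control and DNA repair were called in KO2, 4 higher and 2 lower, where 54.1% of all tested genes were called, and the call of Polh was lost under several alternatives given below. Ddb2, which recognises ultraviolet lesions in nucleotide excision repair, rose in both lines, from 32.8 ± 2.33 CPM in Ctrl to 45.0 ± 3.76 in KO1 and 65.3 ± 6.79 in KO2. The 3 groups did not overlap. Its fitted log2 fold change was 0.45 ± 0.097 in KO1 (adjusted p = 0.00429) and 0.99 ± 0.097 in KO2 (adjusted p = 7.79e-06), with 0.54 between the lines (adjusted p = 0.000656). Xpc, which acts beside it in damage recognition, was at 23.1 ± 0.566, 25.8 ± 1.74 and 30.7 ± 1.89 CPM, and rose in KO2 (0.41, adjusted p = 0.00151) but was not called in KO1 (0.16, adjusted p = 0.175).

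Sesn1, a stress-induced inhibitor of mTORC1, rose in KO2 from 548 ± 39.5 to 729 ± 51.7 CPM (0.41 ± 0.12, adjusted p = 0.0112), with 514 ± 92.4 CPM in KO1. Rrm2b, the p53-induced subunit of ribonucleotide reductase, fell in KO2 from 51.1 ± 7.27 to 36.2 ± 2.24 CPM (-0.50, adjusted p = 0.0113), with 47.7 ± 9.07 CPM in KO1. The translesion polymerases went opposite ways: Polk was at 55.9 ± 4.10, 46.2 ± 5.02 and 43.3 ± 3.25 CPM, and Polh at 23.5 ± 2.65, 30.4 ± 5.23 and 30.7 ± 3.30 CPM. Polk fell in KO2 (-0.37, adjusted p = 0.00767). Its call in KO1 (-0.28, adjusted p = 0.0499) sat at the threshold and was lost under 14 of the 19 alternative settings, including without Ctrl replicate 3 (adjusted p = 0.164). Polh rose in KO2 (0.38, adjusted p = 0.0311), a call lost without Ctrl replicate 2 (adjusted p = 0.109), without KO2 replicate 2 (0.0672), without KO2 replicate 3 (0.119) with the replicate number as a block (0.0545) and with limma on log2(FPKM + 0.1) and log2(FPKM + 1) (0.0761 and 0.0815). In KO1 it was 0.37 with an adjusted p of 0.0578, and it was called there by DESeq2 (0.0491), by limma on log2(FPKM + 0.1) (0.0493) and without KO1 replicate 1 (0.48, adjusted p = 0.0157).

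The difference between the 2 knockout lines was tested directly. Of the 29 genes, 20 were called in KO2 against KO1, 7 higher and 13 lower, where 55.0% of all tested genes were called, 25.5% higher and 29.5% lower. The median was -0.19 against -0.02 over all genes. The arrest and stress kinase genes gave 5 lower and none higher, the other death genes 5 lower and 1 higher, and the repair and metabolic genes 1 lower and 3 higher. Genes called in both lines against Ctrl were Mdm2, Plk3, Polk and Ddb2. The KO1 call of Polk was lost under 14 of the 19 alternative settings. Of all tested genes, 30.5% were called in KO1 and 54.1% in KO2, and the share called in both was not counted. Both comparisons share the Ctrl libraries. For 3 of the 4 genes the lines themselves also differed, Polk being the exception (-0.09, adjusted p = 0.447).

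Genes with and without a p53 half-site in the promoter window were then set side by side. In KO2, 2 of the 11 genes with a half-site were higher, 4 lower and 5 not called, with a median log2 fold change of -0.16. Of the 13 tested genes with a window and no half-site, 2 were higher, 7 lower and 4 not called, with a median of -0.35. Over all tested genes in KO2, 24.6% were higher and 29.5% lower, with a median of -0.03. In KO1 the medians were -0.14 and -0.04, with 3 and 1 genes called lower and none higher. Of all tested genes, 14.9% were lower and 15.6% higher there. The genes with and without a half-site were not tested against each other. Of the 7 genes that fell at least 2-fold in KO2, Gadd45a and Aen had a half-site in the window, and Dram1, Plk2, Btg2, Gadd45b and Plk3 had none. That says only that these letters are not in this window.

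**Figure D3:**
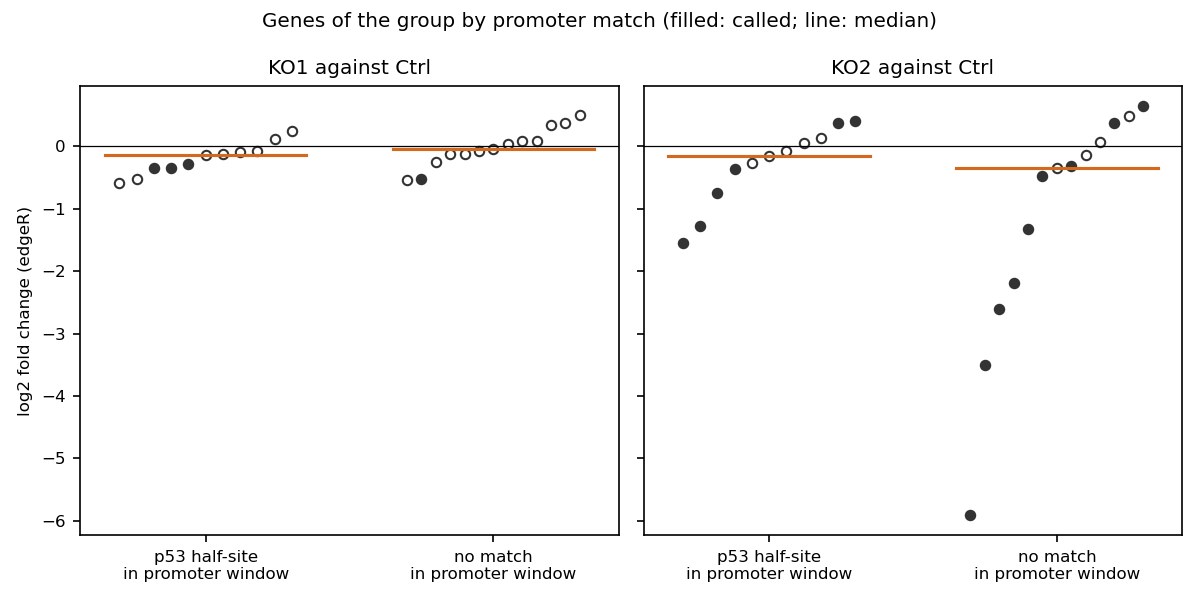
Log2 fold change in KO1 (left) and KO2 (right) of the genes with a p53 half-site in the promoter window (11 genes) and those with a window without one (13 tested genes); filled points are called and lines are medians. The medians in KO2 were -0.16 and -0.35, against -0.03 over all tested genes. The falls beyond -2 on this scale were in genes without a match.

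Trp53 varied within Ctrl and KO1 more than the median gene, with a coefficient of variation of 31.2% in Ctrl and 23.5% in KO1, where the median was 8.46% and 10.3% over all tested genes and 10.5% and 11.9% over the 29. In KO2 it was 6.59%, near the median of 6.40% over all tested genes and below that of 7.49% over the 29. Its highest library was Ctrl replicate 2 and its lowest Ctrl replicate 1, and in KO1 replicate 1 was highest and replicate 2 lowest. Of the other 28 tested genes, 9 put the libraries in the same order as Trp53 in both groups, which is 32.1%, against 12.9% of all other tested genes. In KO2, 7 of the 28 shared its order, against 17.0% of all other tested genes. Over all 13682 tested genes, deviations from the group mean correlated at 0.336 between Ctrl replicate 2 and KO1 replicate 1 and at 0.243 between Ctrl replicate 1 and KO1 replicate 2, so these pairs of libraries deviated alike beyond the genes described here. These 9 were Plk2, Plk3, Gadd45a, Bax, Aen, Phlda3, Trp53inp1, Dram1 and Rrm2b. This order was looked at after the values had been seen, and it is a description of 6 libraries with no test.

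**Figure D4:**
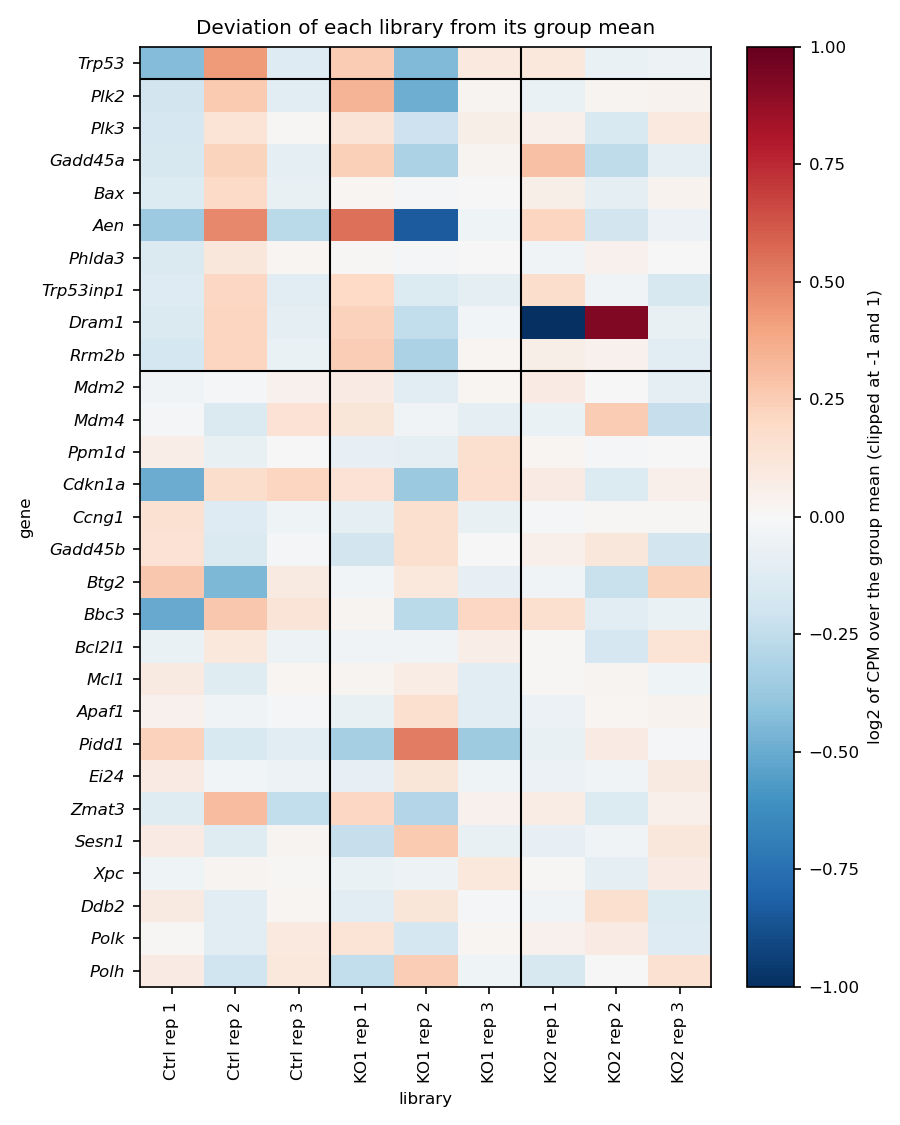
Log2 of CPM over the group mean for each tested gene (rows) in each library (columns), clipped at -1 and 1; Trp53 is in the top row and below it the 9 genes with its order of libraries in both Ctrl and KO1. The 9 genes were picked by that order, so Ctrl replicate 2 and KO1 replicate 1 are the highest of their groups in these rows. The Dram1 values of KO2 rest on counts of 1, 12 and 6.

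Further genes of the p53 pathway were counted in 6 lists, with 115 of 128 genes tested. In KO1, 35 were called, 22 higher and 13 lower, and in KO2, 62, of which 33 were higher and 29 lower. These are 30.4% and 53.9% of the genes tested, close to the 30.5% and 54.1% of all genes. The medians of the 6 lists lay between -0.14 and 0.08 in the 2 lines. The counts by direction in each list below stand beside these shares of all tested genes: 24.6% rose and 29.5% fell in KO2. In KO1 15.6% rose and 14.9% fell.

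Of 32 further p53 targets, 8 rose and 10 fell in KO2, and 7 rose and 3 fell in KO1, with medians of -0.05 and 0.03. Fas, the death receptor of the extrinsic pathway, went from 43.1 ± 8.55 CPM in Ctrl and 42.2 ± 5.72 in KO1 to 0.448 ± 0.0549 CPM in KO2 (log2 -6.58, adjusted p = 1.73e-09), where the 3 libraries together held 40 counts. Trp53i11, a gene named for its induction by p53, fell in KO1 (-0.90, adjusted p = 0.000884) and rose in KO2 (3.16, adjusted p = 1.17e-08). Ak1, an adenylate kinase, fell in KO2 (-1.78, adjusted p = 8.11e-07).

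Among the 12 tested further BCL2 family genes, 3 rose and 2 fell in KO2 (3 called in all without KO2 replicate 1), and 3 rose and 1 fell in KO1, a count of 4 that dropped to 2 without Ctrl replicate 1 or without Ctrl replicate 2. Bcl2, the founding survival gene, rose in both lines, from 35.3 ± 1.41 to 56.4 ± 2.68 and 56.0 ± 2.17 CPM (0.68 and 0.66, adjusted p = 3.41e-05 and 1.43e-05). Bid, which links death receptors to mitochondria, rose in KO1 (1.31, adjusted p = 3.27e-05) and was at -0.33 in KO2 (adjusted p = 0.0629). Bok rose in both (0.43 and 1.22, adjusted p = 0.0459 and 3.87e-05), and Bcl2l13 fell in KO2 (-0.51, adjusted p = 0.00035).

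Of 17 genes of the apoptosome, effector caspases and inhibitors of apoptosis, 6 rose and 6 fell in KO2, and none rose and 2 fell in KO1. The inhibitors Birc3 and Birc2, ubiquitin ligases of TNF receptor signalling, fell in KO2 by 1.85 and 1.13 on the log2 scale (log2 -1.85 and -1.13, adjusted p = 3.3e-08 and 4.42e-06), and Birc2 also fell in KO1 (-0.50, adjusted p = 0.00327). The mitochondrial nuclease Endog and the caspase Casp6 rose in KO2 (0.77 and 0.68, adjusted p = 0.00625 and 0.0482).

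Of 21 kinases, cofactors and relatives of p53, 6 rose and 2 fell in KO2, and 3 rose and 2 fell in KO1, a count of 5 that was 2 without Ctrl replicate 3 and 3 without KO1 replicate 3, KO2 replicate 1 or KO2 replicate 3. Trp63, which encodes the related factor p63, went from 2.04 ± 0.293 CPM to 6.43 ± 1.46 in KO1 (1.65, adjusted p = 0.00161) and to 0.0768 ± 0.105 in KO2 (-4.64, adjusted p = 2.41e-05), on estimated counts of 6, 1 and 0 there. The histone gene H2ax (1.08, adjusted p = 1.09e-05) and the kinase Chek2 (0.89, adjusted p = 0.00065) rose in KO2, and Chek2 also rose in KO1 (0.48, adjusted p = 0.0371). Ppp1r13l, which encodes the p53 inhibitor iASPP, fell in KO1 (-0.72, adjusted p = 0.000914). Trp73 and Cdkn2a, the latter encoding the MDM2 inhibitor ARF, were listed in no library.

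The 18 tested paralogues of the genes followed here gave 5 higher and 7 lower in KO2, and 6 higher and 2 lower in KO1, a count of 8 that was 4 without Ctrl replicate 1 and 5 without Ctrl replicate 3. Gadd45g fell in KO2 (-1.22, adjusted p = 0.00633), as did Phlda1 (-1.38, adjusted p = 6.37e-06) and Btg3 (-0.98, adjusted p = 4.51e-06), and Btg3 rose in KO1 (0.31, adjusted p = 0.02). Sesn3 rose in both lines (1.09 and 1.13, adjusted p = 0.000347 and 0.000109).

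Of 17 genes of excision repair and translesion synthesis, 5 rose and 3 fell in KO2, and 3 rose and 3 fell in KO1, a count of 6 that was 2 without Ctrl replicate 1 or Ctrl replicate 3. Ercc1, a nuclease subunit of excision repair, fell in KO1 (-0.44, adjusted p = 0.00119) and rose in KO2 (1.25, adjusted p = 1.54e-07). Pcna, the sliding clamp, rose in KO2 (0.72, adjusted p = 0.000427), and Rad18, which ubiquitinates it, fell there (-0.54, adjusted p = 0.000421). Rev3l, the catalytic subunit of polymerase zeta, rose in both lines (0.34 and 0.50, adjusted p = 0.013 and 0.000599).

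**Figure D5:**
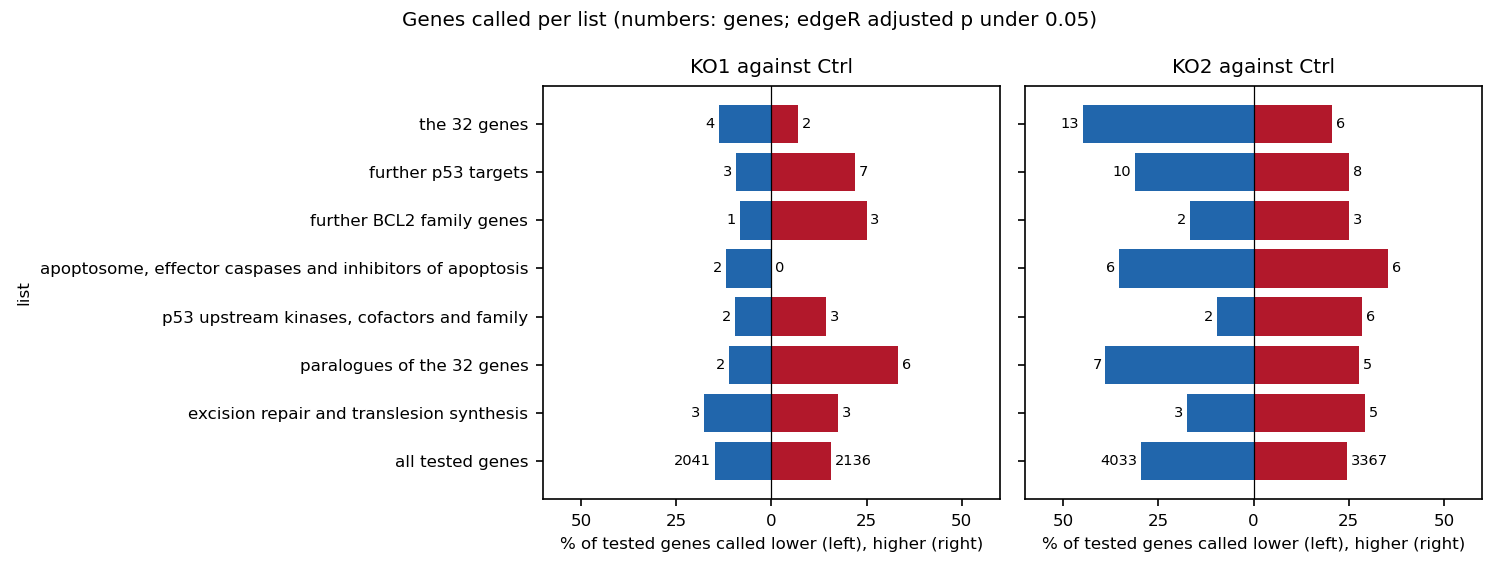
Percent of the tested genes of each list that were called lower (left, blue) or higher (right, red) in KO1 and KO2 against Ctrl, with the number of genes at each bar; the bottom row is all 13682 tested genes. In KO2, 13 of the 29 tested genes of the group were called lower and 6 higher. Of the 32 tested further p53 targets, 10 were lower and 8 higher there, where 29.5% of all tested genes were lower and 24.6% higher.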

How the data were processed

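RNA-seq was measured in 9 libraries, 3 per group. Titles gave the groups, since the series' design text numbers the sixth and ninth samples in another way. The authors used HISAT and RSEM with mm10 and GRCm38, per the submitters' processing notes, without versions. The deposited tables hold an expected count per gene, not normalised, and the authors' FPKM, scaled by length and library size. Genes that a library's table leaves out count as 0 there. Of the expected counts in a library, 74.7% to 75.8% were whole, and all were rounded.

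The rounded counts of all 9 libraries were fitted together with edgeR 4.0.16 in R 4.3.3 (filterByExpr, TMM, robust quasi-likelihood fit; 13682 genes, 6 residual degrees of freedom, biological coefficient of variation 11.1%), with Benjamini-Hochberg adjustment across all genes in the test. Standard errors were derived from the fold change and F statistic and are approximate. Alternatives were other scalings and filters, DESeq2 1.42.0, limma 3.58.1 on log2(FPKM + 0.1) and log2(FPKM + 1), the 2 groups alone, a replicate block, leaving out each library, and an adjusted p of 0.01. The main edgeR fit, and not the alternatives, was also tested on simulated counts, in which far fewer genes changed than were called here.

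Values of every library are given for Trp53, Mdm2, Cdkn1a and genes called at 2-fold or more, and in each list up to 4 genes called in KO1 or KO2 are named, those with the largest change among genes with a mean of at least 1 CPM. One gene that this rule takes is not reported here. The 32 genes and the lists were chosen with earlier results of these data known. The tables held no pathway column, so a planned list by pathway annotation was not made. Counting by strand is not given in the sources used here.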

Additional observations from a re-analysis of the deposited data

Results flagged for a closer look

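The 2 knockout lines differed from each other, by edgeR's test of KO2 against KO1, in 20 of the 29 tested genes, where 55.0% of all tested genes differed. The log2 difference of KO2 from KO1 was most negative for Dram1 (-5.65), Btg2 (-3.12), Plk2 (-2.95), Gadd45b (-2.28) and Gadd45a (-1.79). Smaller negative differences were those of Plk3 (-0.81), Trp53inp1 (-0.75), Bbc3 (-0.69), Phlda3 (-0.57), Zmat3 (-0.52), Mdm2 (-0.40), Rrm2b (-0.40) and Apaf1 (-0.36). Positive differences were those of Mdm4 (0.68), Pidd1 (0.62), Ddb2 (0.54), Ppm1d (0.53), Sesn1 (0.50), Bax (0.47) and Xpc (0.25). KO2 also kept more Malat1 than KO1 (126 against 3.40 CPM), and the part of this in the differences was not tested.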

How the results depend on the processing

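Leaving out 1 library at a time gave 5 to 9 of the 29 genes called in KO1, 18 to 21 in KO2 and 16 to 22 between the lines; over all genes it gave 3215 to 4503, 6412 to 7985 and 6451 to 7964, and over the 6 lists 23 to 38, 54 to 69 and 50 to 62, the 23 being without Ctrl replicate 3. At an adjusted p under 0.01, KO1 had 2620 genes in all and 19 in the lists, and of the 29 genes 4, 15 and 16 were called in the 3 comparisons. Replicate numbers did not pair the libraries (correlations of deviations between same-numbered libraries from -0.343 to 0.049), and with a replicate block 5, 18 and 19 of the 29 genes were called. Values of called genes kept their call under 99 of 114 alternatives in KO1, 351 of 361 in KO2 and 357 of 380 between the lines. Between the lines, calls of Pidd1, Zmat3, Rrm2b and Xpc were lost without single libraries (adjusted p up to 0.111, 0.071, 0.124 and 0.0886), for Rrm2b also with the block (0.0636), and for Xpc also with limma at both pseudocounts (0.156 and 0.149, log2 0.14 and 0.13 against 0.25).

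In the alternatives run, signs turned only in genes that were not called; each range given is that over single libraries left out. In KO1 this held for Trp53 without Ctrl replicate 1 (-0.07) or KO1 replicate 1 (-0.04; range -0.07 to 0.38), Mdm4 with limma (0.03 at both pseudocounts) or without Ctrl replicate 3 (0.04) or KO1 replicate 3 (0.01; range -0.11 to 0.04), Gadd45b (-0.01; to 0.17) and Apaf1 (-0.05; to 0.09) without KO1 replicate 2, Pidd1 without KO1 replicate 1 (0.01) or 3 (0.02; range from -0.48), Sesn1 without KO1 replicate 1 (0.01; from -0.25), and Rrm2b without Ctrl replicate 2 (0.02) or KO1 replicate 2 (0.03; from -0.24). In KO2 it held for Trp53 without Ctrl replicate 2 (0.20; from -0.26), Bcl2l1 with limma (-0.01 at both) or without KO2 replicate 3 (0.0; to 0.15), and Ei24 with limma (-0.03 at both). Between the lines it held for Ccng1 without KO1 replicate 2 (0.06) and Polh with limma (-0.08 at both) or without KO1 replicate 1 (-0.09), KO1 replicate 3 (0.0) or KO2 replicate 3 (-0.06; range -0.09 to 0.18). The cause was not tested. On log2(FPKM + 1) the KO2 changes of Btg2 (-0.96) and Dram1 (-2.41) were smaller, as a pseudocount compresses low levels.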
